A study of Mus musculus with 6 samples.

Results

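The 10 genes described here, Crx, Nrl, Nr2e3, Otx2, Rorb, Thrb, Rxrg, Neurod1, Prdm1 and Mef2d, encode transcription factors that act in photoreceptor fate and gene expression. Members are the rows of the deposited count table that carry these symbols, a rule that uses no measured value, although the set was put together with earlier results of these data known. All 10 were among the 24062 genes of the table, and all 10 passed the filter on low counts that left 16904 genes for testing. Poly(A)-selected RNA from whole retinae at postnatal day 21 (P21) was sequenced in 3 libraries each of the genotypes called Rb1/p107/Hells TKO and, as the comparison, Rb1/p107 DKO. The labels give the strain as C57BL/6, and the study's methods as C57BL/6N. DKO mice carried Chx10-Cre, floxed Rb1 alleles and germline loss of p107 (the gene Rbl1). TKO mice carried the same alleles and, in addition, floxed Hells alleles that target exon 12 of this chromatin remodeler. The alleles for loss of Rb1 and p107, a loss that allows retinoblastoma to form, were therefore common to both groups, and no Cre-negative library was analysed here. Chx10-Cre is active in retinal progenitors in a mosaic pattern, so each retina also held cells that had not recombined. Their share in each library was not measured here. Mice of both sexes were used according to the study's methods, and the labels give no sex for a library. The labels do not state that the 3 retinae of a group came from different animals, so p-values measure the spread between these libraries, which may in part be technical.

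Photoreceptors arise from progenitors that switch on Otx2, a homeobox gene needed for photoreceptor fate, and then its relative Crx, which activates most genes of the light response. The leucine zipper factor NRL and its target, the nuclear receptor NR2E3, direct such cells to become rods and keep cone genes off, whereas the thyroid hormone receptor THRB and the retinoid receptor RXRG act in cones and set their opsins. RORB acts upstream of Nrl, PRDM1 (BLIMP1) keeps young photoreceptors from becoming bipolar cells, NEUROD1 sustains photoreceptors, and MEF2D is a partner of CRX at genes of the mature cell.

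Library totals ranged from 10343907 to 14203098 counts. Hells had between 60.8 and 83.5 normalised counts in TKO retinae against between 395 and 678 in the DKO group, a log2 difference of -2.91 (adjusted p = 0.00359), which is the direction that the labels give. All 10 markers of dividing cells fell too, with a median log2 fold change of -2.57, and their part in the Hells value was not tested. Rb1 had between 682 and 814 normalised counts in TKO and between 572 and 617 in DKO retinae (log2 difference 0.34, edgeR adjusted p = 0.0388). Rbl1 had between 13.5 and 27.5 in TKO and between 15.1 and 24.2 in DKO retinae (edgeR adjusted p = 0.839). Whether Rb1 was lost to the same extent in both groups was not tested. To normalise, each count was divided by its library's TMM-scaled size over the mean size of the 6 libraries, and adjusted p-values come from edgeR's quasi-likelihood test with Benjamini-Hochberg adjustment over 16904 genes. Pairs of same-genotype libraries had a chi-square per degree of freedom between 8.65 and 25.5, well above sampling noise. The 10 rod markers used to check the tissue were detected in every library, with summed levels between 131866 and 777071 normalised counts. Lens markers stood at between 618 and 3608 summed normalised counts in TKO retinae, with TKO replicate 2 at the top, and at between 160 and 175 in DKO retinae. Markers of the retinal pigment epithelium stood at between 881 and 2484 in TKO and between 262 and 1171 in DKO retinae, with overlap. Of these 8 markers 1 rose, and none did without TKO replicate 1, TKO replicate 2, DKO replicate 1 or DKO replicate 2. The part of lens and pigment epithelium in the results was not tested.

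Of the 10 factors, 7 rose in TKO retinae and none fell. Crx, Nrl and Nr2e3 rose most, by 2.71-fold, 4.24-fold and 3.04-fold. Otx2, Mef2d, Neurod1 and Thrb rose by between 1.52-fold and 1.92-fold. Prdm1 did not pass the threshold, and Rorb and Rxrg had nearly equal levels in both genotypes. In bulk tissue, fewer cells of a type and less RNA per cell cannot be told apart, so these are levels per retina library and not per photoreceptor. A gene was taken to have risen or fallen when its adjusted p was at most 0.05, which 16.6% of all tested genes met (7.35% higher and 9.2% lower in TKO retinae). Only Crx, Nrl and Nr2e3 also met the study's criteria for differential expression, which add a log2 fold change of 1 or more in either direction and a mean normalised count of 10 or more, and which 6.35% of tested genes met (1.97% higher and 4.38% lower in TKO retinae). The log2 fold changes of the 10 factors ran from 0.011 to 2.08 with a median of 0.83, where the median of all tested genes was -0.011 with quartiles at -0.31 and 0.21. For 8 of the 10, every TKO value lay above every DKO value, an arrangement found in 18% of all tested genes, with 20.6% in the opposite one.

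**Figure D1:**
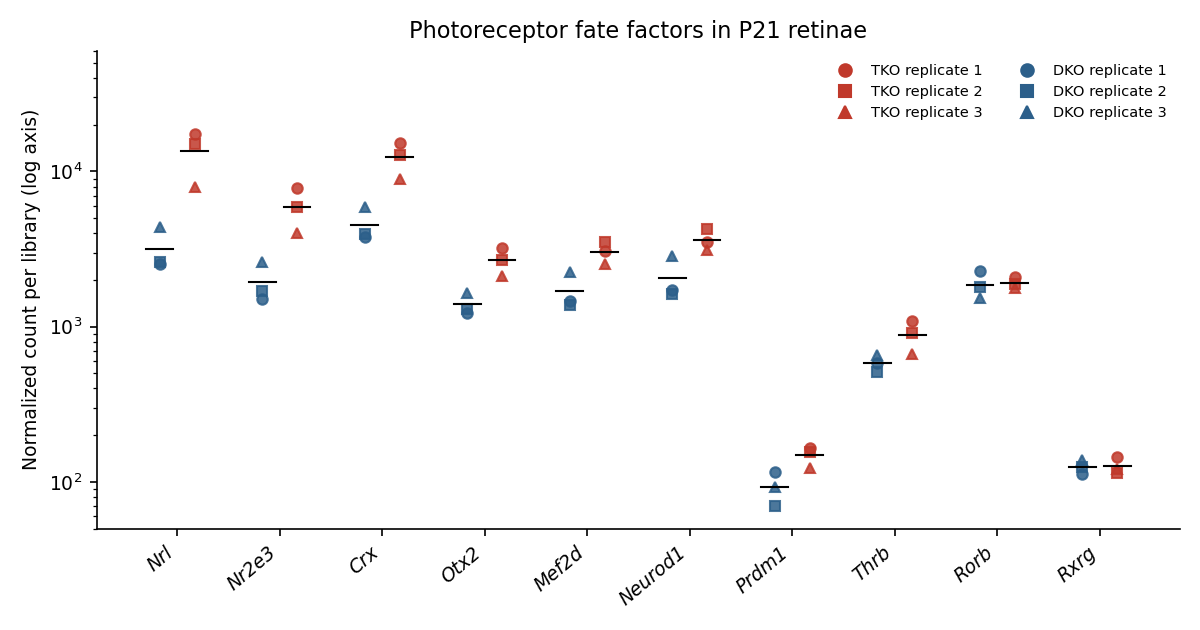
Normalised counts (log axis) of the 10 factors, ordered by log2 fold change, in the 3 TKO and 3 DKO retinae, with a point for each library and a black tick at each group mean. TKO points lie above all DKO points for every gene except Rorb and Rxrg, where the groups overlap.

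The number of factors that passed depended on single libraries, as did the number of all tested genes that passed. Leaving out TKO replicate 1 or 2 gave 4 each, and leaving out TKO replicate 3 gave 8. Leaving out DKO replicate 1 gave 3, DKO replicate 2 gave 2 and DKO replicate 3 gave 7. Over all genes, 2799 passed with every library kept. That number was 1307, 712 and 3590 without TKO replicates 1 to 3, and 811, 647 and 3198 without DKO replicates 1 to 3. Crx and Nrl passed in each of these 6 fits. TKO replicate 3 held the lowest TKO value for 9 of the 10 genes and TKO replicate 1 the highest for 8, while DKO replicate 3 held the highest DKO value for 8. Beside these counts, all 10 rod markers rose, with summed levels from 387144 to 777071 in TKO and from 131866 to 250912 in DKO retinae, and all 10 markers of dividing cells fell, from 7192 to 13723 in DKO and from 947 to 3304 in TKO retinae. TKO replicate 3 had the lowest rod sum and the highest sum of dividing cell markers among the TKO retinae, and DKO replicate 3 the highest rod sum and the lowest dividing sum among the DKO retinae. With TKO replicate 2 left out, 6 rod and 5 dividing cell markers passed, and with DKO replicate 1 or DKO replicate 2 left out, 4 rod and 6 dividing cell markers did. The part of these cell populations in the changes of the 10 factors was not tested.

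Per kilobase of annotated exon, Crx was the most abundant factor in both genotypes and Prdm1 the least. Crx stood at 3895 ± 985 normalised counts per kilobase in TKO and at 1437 ± 376 in DKO retinae (SD, n = 3 each, as for all such values here). In DKO retinae the order below Crx was Neurod1, Nr2e3, Nrl, Otx2, Mef2d, Rorb, Thrb, Rxrg and Prdm1, with Neurod1 at 756 ± 250, Nr2e3 at 577 ± 175 and Nrl at 558 ± 182. The DKO ranges of Neurod1, Nr2e3 and Nrl overlapped from neighbour to neighbour, as did those of Otx2 (331 ± 53.4) and Mef2d (284 ± 78.1). In TKO retinae Nrl came directly after Crx at 2369 ± 868, followed by Nr2e3 at 1755 ± 568 and Neurod1 at 1334 ± 207. The TKO ranges of these neighbours overlapped too, from Crx down to Neurod1. Otx2 (636 ± 131) and Mef2d (505 ± 81.9) also overlapped in TKO retinae. Below them Rorb stood at 173 ± 14.5 and 169 ± 34.1 normalised counts per kilobase in TKO and DKO retinae, Thrb at 120 ± 28.0 and 78.7 ± 9.98, Rxrg at 55.1 ± 6.89 and 54.6 ± 5.69, and Prdm1 at 26.5 ± 4.04 and 16.6 ± 4.10. From Mef2d downward no neighbours in either order overlapped. Within a library the order did not vary, since each of the 3 TKO and each of the 3 DKO retinae held the order of its group means.

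**Figure D2:**
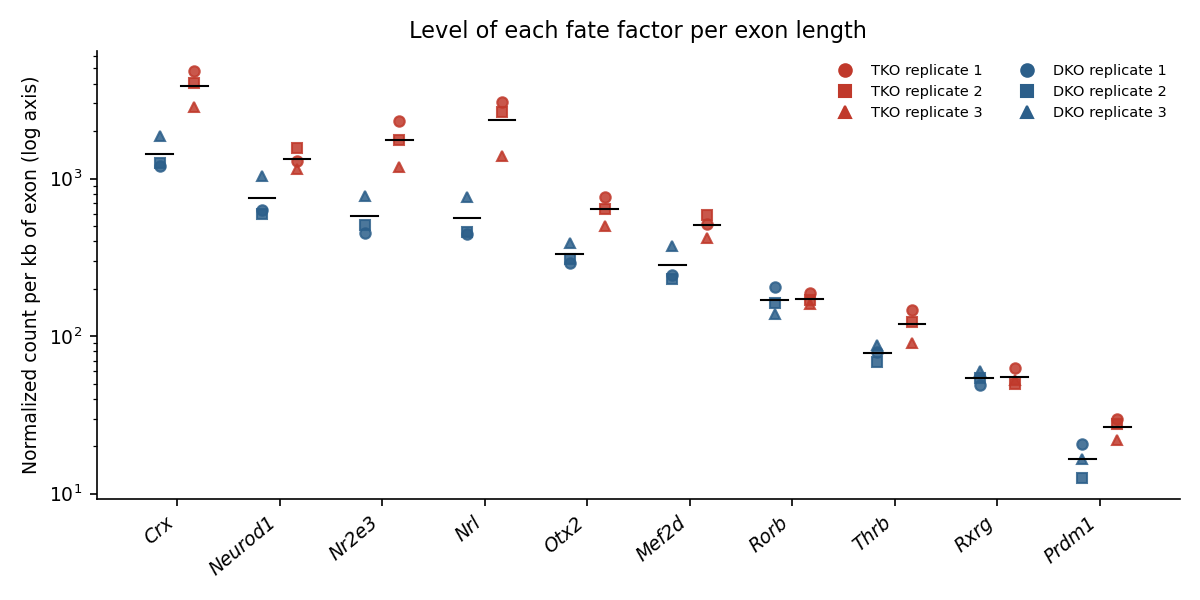
Normalised counts per kilobase of annotated exon (log axis) for the 10 factors, with a point for each library and a black tick at each group mean. Crx is at the top in both genotypes, and Nrl stands below Neurod1 and Nr2e3 in the DKO order and directly below Crx in the TKO order.

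The homeobox gene Crx (ENSMUSG00000041578), whose protein drives rod and cone genes, is a minus-strand gene of chromosome 7 (GRCm38, 15865947 to 15879968). It had 15192, 12727 and 9008 normalised counts in TKO replicates 1 to 3 and 3772, 3941 and 5907 in DKO replicates 1 to 3. The lowest TKO retina therefore lay above the highest DKO retina. The means were 12309 ± 3113 and 4540 ± 1187, a log2 fold change of 1.44 (95% interval 0.91 to 1.97, SE 0.23, adjusted p = 0.00821, edgeR quasi-likelihood). Crx kept its call with any library left out, with adjusted p-values up to 0.0451. Because CRX and OTX2 bind a shared core, TAATCC, and because Crx and Otx2 rose together, the sequence before the RefSeq start of Crx is shown, up to the annotated exon and on the gene's strand, with matches to TAATCC or its reverse complement in capitals.
Crx, chr7:15879969-15880205 of GRCm38.p6, minus strand: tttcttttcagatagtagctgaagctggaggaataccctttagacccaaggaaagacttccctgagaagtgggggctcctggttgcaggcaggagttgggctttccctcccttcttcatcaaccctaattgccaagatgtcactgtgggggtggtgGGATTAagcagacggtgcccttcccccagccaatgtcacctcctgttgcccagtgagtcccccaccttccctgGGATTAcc
Both matches are on the opposite strand, as GGATTA, and begin 94 and 21 bases before the start. All 10 genes matched promoters in the RefSeq table, in 16 windows of 300 bases (250 before and 50 after a start). TAATCC occurred in 3 of these 16 windows, of Crx, Otx2 and Thrb, against 7.06% of 32851 windows of all genes. A match is a run of letters and not a measured binding site.

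Otx2 (ENSMUSG00000021848), which is switched on upstream of Crx, lies on chromosome 14 from 48657677 to 48673819 on the minus strand. It had 3232, 2703 and 2124 normalised counts in TKO replicates 1 to 3 and 1227, 1309 and 1652 in DKO replicates 1 to 3, with no overlap. The means were 2686 ± 554 and 1396 ± 225, and the log2 fold change was 0.94 (95% interval 0.56 to 1.33, SE 0.17, edgeR adjusted p = 0.0106), short of the study's fold criterion. The call was lost without DKO replicate 1 (adjusted p = 0.0509) and without DKO replicate 2 (0.0539). Within a library, the log2 ratio of Crx to Otx2 was 2.18 ± 0.087 in TKO and 1.68 ± 0.14 in DKO retinae, a difference of 0.50 with no overlap (exact permutation test, two-sided p = 0.1, the smallest that 3 against 3 allow). The antisense transcript Otx2os1, which shares 154 exonic bases with Otx2, had 95.2, 68.4 and 57.7 normalised counts in TKO and 34.8, 27.1 and 34.5 in DKO retinae (log2 fold change 1.20, edgeR adjusted p = 0.0193). The strand setting of the counting is not stated, so reads of the shared bases cannot be assigned to a strand. Otx1, the other OTX gene, had 0, 18.9 and 35.6 normalised counts in TKO and 44.2, 70.0 and 33.7 in DKO retinae and did not pass (edgeR adjusted p = 0.227).

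Nrl (ENSMUSG00000040632), the leucine zipper gene that commits cells to the rod fate, changed most of the 10. It lies on chromosome 14 from 55518978 to 55524981 on the minus strand. Its normalised counts were 17417, 15077 and 7942 in TKO replicates 1 to 3 and 2538, 2624 and 4369 in DKO replicates 1 to 3. TKO replicate 3 was the lowest TKO retina and DKO replicate 3 the highest DKO retina, and the groups did not overlap. The means were 13479 ± 4935 and 3177 ± 1033, a log2 fold change of 2.08 (95% interval 1.36 to 2.81, SE 0.32, edgeR adjusted p = 0.00755). The call held with any library left out, with adjusted p-values up to 0.0424. Its relative Maf had means of 149 ± 50.5 and 201 ± 22.3 normalised counts in TKO and DKO retinae and did not pass (edgeR adjusted p = 0.261). The log2 ratio of Nrl to Maf was 2.54 higher in TKO retinae, without overlap. The RefSeq window before Nrl lies wholly in exons of other annotated transcripts, so it is not printed. It held 2 E-boxes (CANNTG), 111 and 19 bases before the start, and E-boxes occurred in 72.3% of all windows.

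Nr2e3 (ENSMUSG00000032292), the nuclear receptor gene that NRL activates and that represses cone genes in rods, lies on chromosome 9 from 59942771 to 59960659 on the minus strand. It had 7820, 5926 and 3992 normalised counts in TKO replicates 1 to 3 and 1515, 1698 and 2617 in DKO replicates 1 to 3. The order of the libraries was that of Crx and Nrl in each group, and the groups did not overlap. The means were 5912 ± 1914 and 1943 ± 591, with a log2 fold change of 1.61 (95% interval 0.98 to 2.23, SE 0.27, edgeR adjusted p = 0.00987). The call was lost without DKO replicate 2 (adjusted p = 0.0510). Its relative Nr2e1, a gene of progenitors and Muller glia, had 186, 220 and 217 normalised counts in TKO and 324, 317 and 319 in DKO retinae, and fell by 0.62 on the log2 scale (edgeR adjusted p = 0.0114, lost without DKO replicate 1 at 0.0515 or DKO replicate 2 at 0.0557). Nr2e3 over Nr2e1 was thus 2.22 higher in TKO retinae as a log2 ratio, without overlap. Since the bHLH factor NEUROD1 and others bind E-boxes, and Nr2e3 held 5 of them in its window, the sequence before its RefSeq start is shown up to the annotated exon, with CANNTG in capitals.
Nr2e3, chr9:59950118-59950329 of GRCm38.p6, minus strand: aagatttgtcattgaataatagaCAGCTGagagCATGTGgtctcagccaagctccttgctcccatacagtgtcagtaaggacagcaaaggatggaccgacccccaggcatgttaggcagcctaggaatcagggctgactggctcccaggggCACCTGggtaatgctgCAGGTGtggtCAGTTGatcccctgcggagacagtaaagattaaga
The E-boxes begin 227, 217, 99, 83 and 73 bases before the start, and neither TAATCC nor TGCTGA, the core of the site bound by NRL and other Maf factors, occurred in the window. TGCTGA occurred in 5 of the 16 windows of the factors, of Mef2d, Neurod1, Otx2 and Rorb, and in 19.5% of all windows.

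Rorb (ENSMUSG00000036192), an orphan nuclear receptor gene that acts upstream of Nrl and is also used in amacrine and horizontal cells, did not share the rise. It lies on chromosome 19 from 18930605 to 19111196 on the minus strand. Its normalised counts were 2089, 1872 and 1777 in TKO replicates 1 to 3 and 2273, 1806 and 1524 in DKO replicates 1 to 3. The groups overlapped fully, with the DKO retinae spanning both the highest and the lowest value. The log2 fold change was 0.035 (95% interval -0.29 to 0.36, SE 0.14, edgeR adjusted p = 0.887), so a change larger than 0.36 on the log2 scale lay outside the interval. The sign of this value depended on the scaling, with -0.13 when only total counts were used. Its relative Rora had 3720, 3415 and 2814 normalised counts in TKO and 2102, 1793 and 2224 in DKO retinae and rose by 0.70 on the log2 scale (edgeR adjusted p = 0.0108, lost without TKO replicate 2 at 0.0527 or DKO replicate 2 at 0.0515). Rorb over Rora differed by -0.65 between genotypes as a log2 ratio, without overlap. Rorb and Rora shared an exact run of at most 31 bases, the longest between any of the factors and a relative. The sequence before the upstream RefSeq start of Rorb is shown as that of a factor whose level did not follow Nrl, with the NRL and Maf core TGCTGA in capitals.
Rorb, chr19:19111197-19111446 of GRCm38.p6, minus strand: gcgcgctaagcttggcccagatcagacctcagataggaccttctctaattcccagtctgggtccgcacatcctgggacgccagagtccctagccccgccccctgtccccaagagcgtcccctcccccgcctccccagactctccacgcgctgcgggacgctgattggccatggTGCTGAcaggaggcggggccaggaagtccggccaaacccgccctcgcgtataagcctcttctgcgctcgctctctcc
The match begins 77 bases before this start.

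Neurod1 (ENSMUSG00000034701), a bHLH gene of photoreceptors and of amacrine cells, lies on chromosome 2 from 79452521 to 79456751 on the minus strand. It had 3531, 4253 and 3139 normalised counts in TKO replicates 1 to 3 and 1717, 1621 and 2848 in DKO replicates 1 to 3. DKO replicate 3 came close to TKO replicate 3, but the groups did not overlap. Its log2 fold change was 0.82 (95% interval 0.32 to 1.32, SE 0.22, edgeR adjusted p = 0.0369). The call was lost without TKO replicate 1 (0.0818), TKO replicate 2 (0.128), DKO replicate 1 (0.123) or DKO replicate 2 (0.125), and with robust dispersion estimates (0.0659). Cerkl, which shares 201 exonic bases with Neurod1 on the same strand, had between 360 and 543 normalised counts in TKO and between 198 and 446 in DKO retinae and did not pass (edgeR adjusted p = 0.198). The other NEUROD genes did not rise. Neurod4, also a retinal gene, had means of 3317 ± 135 and 3261 ± 126 in TKO and DKO retinae (edgeR adjusted p = 0.854). Neurod2 and Neurod6, which mark amacrine cells, fell by 0.70 and 1.13 on the log2 scale (edgeR adjusted p = 0.0446 and 0.0248), and both calls were lost without TKO replicate 1 (0.113 and 0.0757), TKO replicate 2 (0.104 and 0.0967), DKO replicate 1 (0.120 and 0.0557) or DKO replicate 2 (0.166 and 0.106). As log2 ratios, Neurod1 was higher in TKO retinae by 0.83 against Neurod4, by 1.56 against Neurod2 and by 2.02 against Neurod6, without overlap in any of the 3.

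Mef2d (ENSMUSG00000001419), a MADS-box gene whose protein acts with CRX at photoreceptor enhancers, lies on chromosome 3 from 88142372 to 88172086 on the plus strand. It had 3063, 3494 and 2516 normalised counts in TKO replicates 1 to 3 and 1473, 1387 and 2236 in DKO replicates 1 to 3, without overlap and with the libraries in the order seen for Neurod1. Its log2 fold change was 0.83 (95% interval 0.39 to 1.28, SE 0.19, edgeR adjusted p = 0.0239). The call was lost without TKO replicate 1 (0.0654), TKO replicate 2 (0.0931), DKO replicate 1 (0.0919) or DKO replicate 2 (0.0918). Among its relatives, Mef2c, a gene of neurons and microglia, had 780, 658 and 401 normalised counts in TKO and 281, 197 and 186 in DKO retinae, and rose by 1.47 on the log2 scale (edgeR adjusted p = 0.0101, lost without DKO replicate 2 at 0.0512). Mef2a had means of 1462 ± 78.5 and 1308 ± 71.3 and did not pass (edgeR adjusted p = 0.195). The log2 ratio of Mef2d to Mef2a was 0.69 higher in TKO retinae without overlap, whereas the ratio to Mef2c overlapped between genotypes (difference -0.59, exact two-sided p = 0.3). The antisense transcript 1700113A16Rik shares 531 exonic bases with Mef2d and had between 330 and 436 normalised counts in TKO and between 196 and 274 in DKO retinae. The MEF2 site, searched on both strands, occurred in no window of the 10 factors and in 3.69% of all windows.

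Prdm1 (ENSMUSG00000038151), whose zinc finger protein BLIMP1 keeps young photoreceptors from the bipolar fate and is normally switched off as they mature, was the rarest of the 10 factors per kilobase of exon. It lies on chromosome 10 from 44437177 to 44528501 on the minus strand. It had 166, 155 and 123 normalised counts in TKO replicates 1 to 3 and 116, 70.0 and 92.4 in DKO replicates 1 to 3, without overlap. The log2 fold change was 0.68 (95% interval 0.18 to 1.18, SE 0.22), and the adjusted p of 0.0689 from edgeR's quasi-likelihood test missed the threshold. It passed with DESeq2 (adjusted p = 0.0367) and without TKO replicate 3 (0.0434). As log2 ratios, Prdm1 was higher in TKO retinae by 0.77 against Prdm8 and by 1.58 against Prdm13, without overlap. Prdm13, a gene of amacrine cell fate, fell by 0.87 on the log2 scale (edgeR adjusted p = 0.0162). That call was lost without TKO replicate 2 (0.0617), DKO replicate 1 (0.0614) or DKO replicate 2 (0.0705).

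Of the receptors of the cone programme, Thrb passed the threshold and Rxrg did not, and their changes were not compared with each other. Thrb (ENSMUSG00000021779), whose TRβ2 product sets the M-opsin pattern of cones, lies on chromosome 14 from 17660261 to 18038090 on the plus strand. It had 1080, 907 and 668 normalised counts in TKO replicates 1 to 3 and 586, 507 and 654 in DKO replicates 1 to 3. The lowest TKO value exceeded the highest DKO value narrowly. Its rise was 0.60 on the log2 scale (95% interval 0.21 to 1.00, SE 0.17, edgeR adjusted p = 0.0472), and gene counts do not separate TRβ2 from the other isoforms of Thrb. The call was lost without TKO replicate 1 (0.138), TKO replicate 2 (0.135), DKO replicate 1 (0.124) or DKO replicate 2 (0.162), with total counts as the scaling (0.0694) and with robust dispersion estimates (0.0517). Its paralogue Thra, expressed broadly in neurons, had means of 3544 ± 230 and 4242 ± 359 in TKO and DKO retinae (log2 fold change -0.26, edgeR adjusted p = 0.100). Thrb over Thra was 0.84 higher in TKO retinae as a log2 ratio, without overlap.

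Rxrg (ENSMUSG00000015843), a retinoid X receptor gene of cones, lies on chromosome 1 from 167598384 to 167639623 on the plus strand. It had 144, 115 and 120 normalised counts in TKO replicates 1 to 3 and 113, 124 and 139 in DKO replicates 1 to 3, and the groups overlapped. The log2 fold change was 0.011 (95% interval -0.36 to 0.38, SE 0.16, edgeR adjusted p = 0.968), and its sign turned with upper quartile scaling (-0.021) and total counts (-0.15). Rxra, which is used in many cell types, had 775, 848 and 655 normalised counts in TKO and 476, 506 and 573 in DKO retinae and rose by 0.55 on the log2 scale (edgeR adjusted p = 0.0186). That call was lost without TKO replicate 1 (0.0580), TKO replicate 2 (0.0811), DKO replicate 1 (0.0708) or DKO replicate 2 (0.0783). The log2 ratio of Rxrg to Rxra was lower in TKO retinae by a difference of -0.54 without overlap, and that of Rxrg to Rxrb differed by 0.0090 with overlap (exact two-sided p = 1). In all, 22 such ratios of a factor to a relative or to another factor were compared, a choice made after the data were seen. Ratios whose genotypes did not overlap had an exact two-sided p of 0.1 and a Benjamini-Hochberg value of 0.116, so none could reach a threshold of 0.05, and ratios of other gene pairs were not computed for comparison. Because THRB and RXRG can bind DNA together at repeats of AGGTCA, and only these genes held that core among the 10, a window of each is shown with AGGTCA and CANNTG in capitals.
Thrb, chr14:17660710-17660891 of GRCm38.p6, plus strand: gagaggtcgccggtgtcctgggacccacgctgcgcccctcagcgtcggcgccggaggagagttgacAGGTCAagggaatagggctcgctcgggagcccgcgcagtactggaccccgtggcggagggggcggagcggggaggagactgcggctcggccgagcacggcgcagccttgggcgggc
Rxrg, chr1:167618015-167618264 of GRCm38.p6, plus strand: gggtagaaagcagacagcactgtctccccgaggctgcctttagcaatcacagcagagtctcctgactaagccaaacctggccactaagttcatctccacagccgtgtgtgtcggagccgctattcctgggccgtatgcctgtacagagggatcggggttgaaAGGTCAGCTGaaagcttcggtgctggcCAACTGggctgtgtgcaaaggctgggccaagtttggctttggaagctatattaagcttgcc
AGGTCA begins 184 bases before the start in Thrb and 88 bases before it in Rxrg, where the E-box that begins 84 bases before the start overlaps it. AGGTCA occurred in 2 of the 16 windows of the factors and in 16.3% of all windows.

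The rod and cone genes that these factors control were read in the same libraries. All 14 rod effector genes rose, with log2 fold changes from 1.37 to 2.02 and a median of 1.74. Among the most abundant, the rod transducin gene Gnat1 rose by 1.84 and the arrestin gene Sag by 1.63 on the log2 scale (edgeR adjusted p = 0.0114 and 0.0132). The number that passed fell to 8 when TKO replicate 2 was left out and to 6 when either DKO replicate 1 or DKO replicate 2 was. Of 12 cone effector genes, 3 rose and 9 did not pass, with a median of 0.83. Those that rose were the S-opsin gene Opn1sw at 1.24, the cone arrestin gene Arr3 at 1.14 and the channel subunit gene Kcne2 at 1.23 (edgeR adjusted p = 0.0467, 0.0279 and 0.0444), whereas Gnb3, the most abundant and also used in ON bipolar cells, had 0.28 (0.465). None of the 12 passed without TKO replicate 1, TKO replicate 2, DKO replicate 1 or DKO replicate 2, whereas 10 passed without TKO replicate 3 and 6 without DKO replicate 3.

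**Figure D3:**
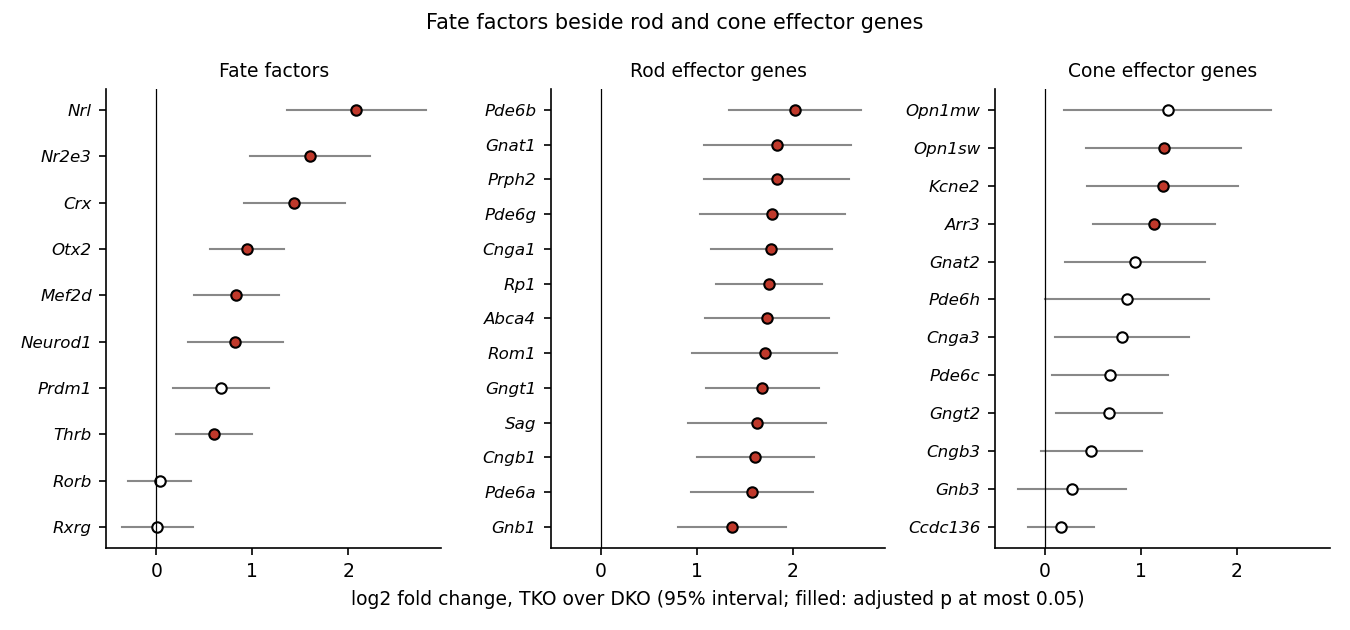
Log2 fold changes (TKO over DKO, horizontal axes) of the 10 fate factors and of the rod and cone effector genes that are reported here, with 95% intervals from edgeR's quasi-likelihood fit and filled points where the adjusted p is at most 0.05. Nrl, at 2.08, lies furthest right of the factors, all rod genes shown are filled, and 9 cone genes are open.

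Measured against the rod effector genes of the same library, most of the 10 factors stood lower in TKO than in DKO retinae. The ratio used was the log2 of a factor's level over the geometric mean level of the 14 rod genes, in which library size cancels. It was lower in every TKO retina than in any DKO retina for 8 factors, as it was for 91.7% of all tested genes, so the lower ratio of these 8 was not particular to them. The ratio of Nrl was -1.10, -1.07 and -1.31 in TKO replicates 1 to 3 and -1.52, -1.41 and -1.51 in DKO replicates 1 to 3, and so was higher in each TKO retina. Its difference of 0.32 had an exact two-sided permutation p of 0.1, the smallest possible here, and a higher ratio without overlap was found for 32 of the 16904 genes, or 0.189%. Nr2e3 kept to the rod genes most closely, with a difference of -0.14 and overlapping groups (exact two-sided p = 0.2). Crx differed by -0.30, Otx2 by -0.80, Neurod1 and Mef2d by -0.88 each, Prdm1 by -1.04, Thrb by -1.15, Rorb by -1.69 and Rxrg by -1.73, each with an exact two-sided p of 0.1. Nr2e3 joined the lower ratios when the rod genes were summed instead, with a difference of -0.18.

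**Figure D4:**
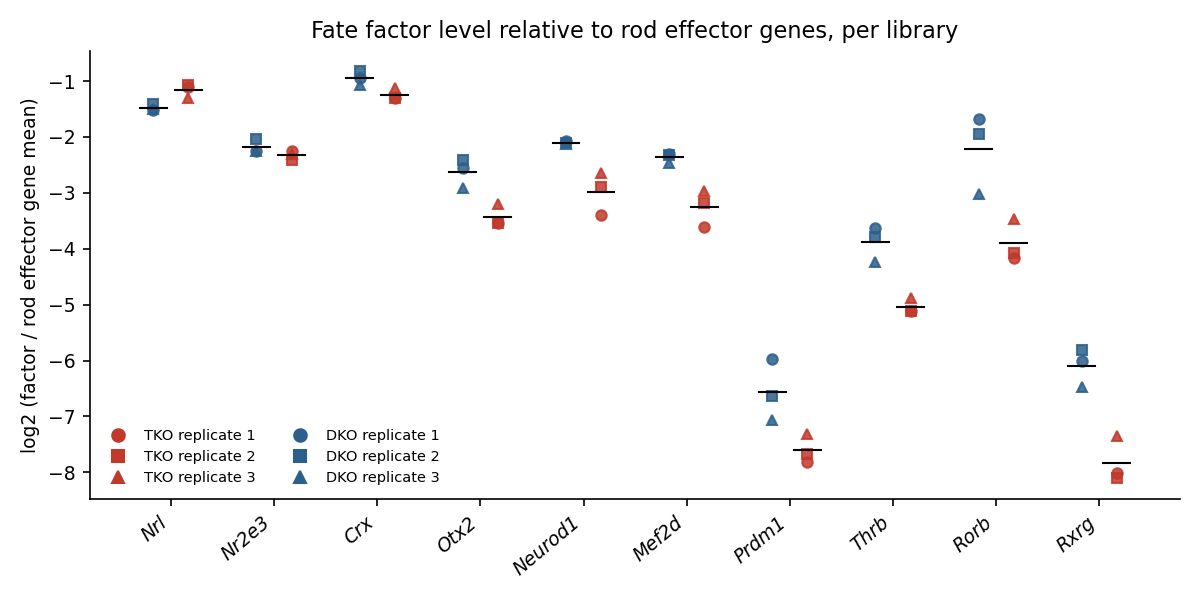
Log2 ratio of each factor to the geometric mean of the 14 rod effector genes (vertical axis), with a point for each library and a black tick at each group mean, and factors ordered by the TKO minus DKO difference. Nrl, leftmost, is the factor whose TKO points all lie above its DKO points, Nr2e3 overlaps, and Rorb and Rxrg, rightmost, have the largest differences between group means.

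Against the 12 cone effector genes, a comparison added after the data were seen, Nrl, Nr2e3 and Crx stood higher in TKO retinae. The log2 ratio to the geometric mean of the cone genes was 1.29 higher for Nrl, 0.83 for Nr2e3 and 0.67 for Crx, without overlap and with an exact two-sided p of 0.1 each. Of all tested genes, 1.4% were higher without overlap on this ratio and 19.5% lower. The other 7 factors overlapped between the genotypes. For the cone receptor gene Thrb the ratio ran from -0.57 to -0.097 in TKO and from -0.36 to 0.12 in DKO retinae (difference -0.18, exact two-sided p = 0.4). For Rxrg it ran from -3.47 to -2.57 in TKO and from -2.60 to -2.26 in DKO retinae (difference -0.75, exact two-sided p = 0.2). The geometric mean of the rod genes itself differed by 1.74 on the log2 scale between the genotypes and that of the cone genes by 0.76. Measured against Crx, Nrl was 0.62 and Nr2e3 0.16 higher in TKO retinae, and the other 7 were lower, with Otx2 at -0.50 nearest to it and Rxrg at -1.43 furthest, all without overlap (exact two-sided p = 0.1). Against Crx, 89.7% of all tested genes were lower without overlap and 0.396% higher, so the lower ratios of these 7 were not particular to them.

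Among 20 other regulators of photoreceptor development, 6 rose, 3 fell and 11 did not pass, with a median log2 fold change of 0.12. Esrrb, an orphan nuclear receptor gene needed for rod survival, had the largest fitted rise of the list, with 5388, 4970 and 2648 normalised counts in TKO and 778, 799 and 1237 in DKO retinae (log2 fold change 2.21, edgeR adjusted p = 0.00677). Samd7 and Samd11, partner genes of a Polycomb complex in rods, rose by 1.34 and 1.27 on the log2 scale (edgeR adjusted p = 0.0405 and 0.0142). Casz1, a zinc finger gene of late progenitors and rods, rose by 1.19 (0.0167), Pias3, a SUMO ligase gene that favours rod over cone genes, by 0.90 (0.00691), and Rora by 0.70 (0.0108). Of the genes that fell, Foxn4, which acts in progenitors of amacrine and horizontal cells, had 17.2, 21.1 and 61.4 normalised counts in TKO and 340, 262 and 142 in DKO retinae (log2 fold change -2.91, edgeR adjusted p = 0.00926), and Ikzf1, a gene of early progenitors that microglia also express, had a log2 fold change of -1.33 (0.0226). Olig2, a gene of neurogenic progenitors, had raw counts of 0, 0 and 0 in TKO and 16, 19 and 3 in DKO retinae, at least 3.34-fold lower against a floor of 3 counts in each library (edgeR adjusted p = 0.0369). Esrrb, Pias3 and Foxn4 passed with any library left out. Genes that rose numbered 4 when TKO replicate 1 was left out, 2 when TKO replicate 2 was, 3 when DKO replicate 1 was and 2 when DKO replicate 2 was. Leaving out any of these 4 libraries left 1 gene that fell, and leaving out TKO replicate 3 gave 5. Microglia, which express Ikzf1 and Mef2c, had summed marker levels of 1154 to 2076 in TKO and 2652 to 3856 in DKO retinae, with 5 of 8 markers fallen. That number was 3 when TKO replicate 1 was left out, 1 when DKO replicate 1 was and 0 when TKO replicate 2 or DKO replicate 2 was. The part of microglia in the values of Ikzf1 and Mef2c was not tested.

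**Figure D5:**
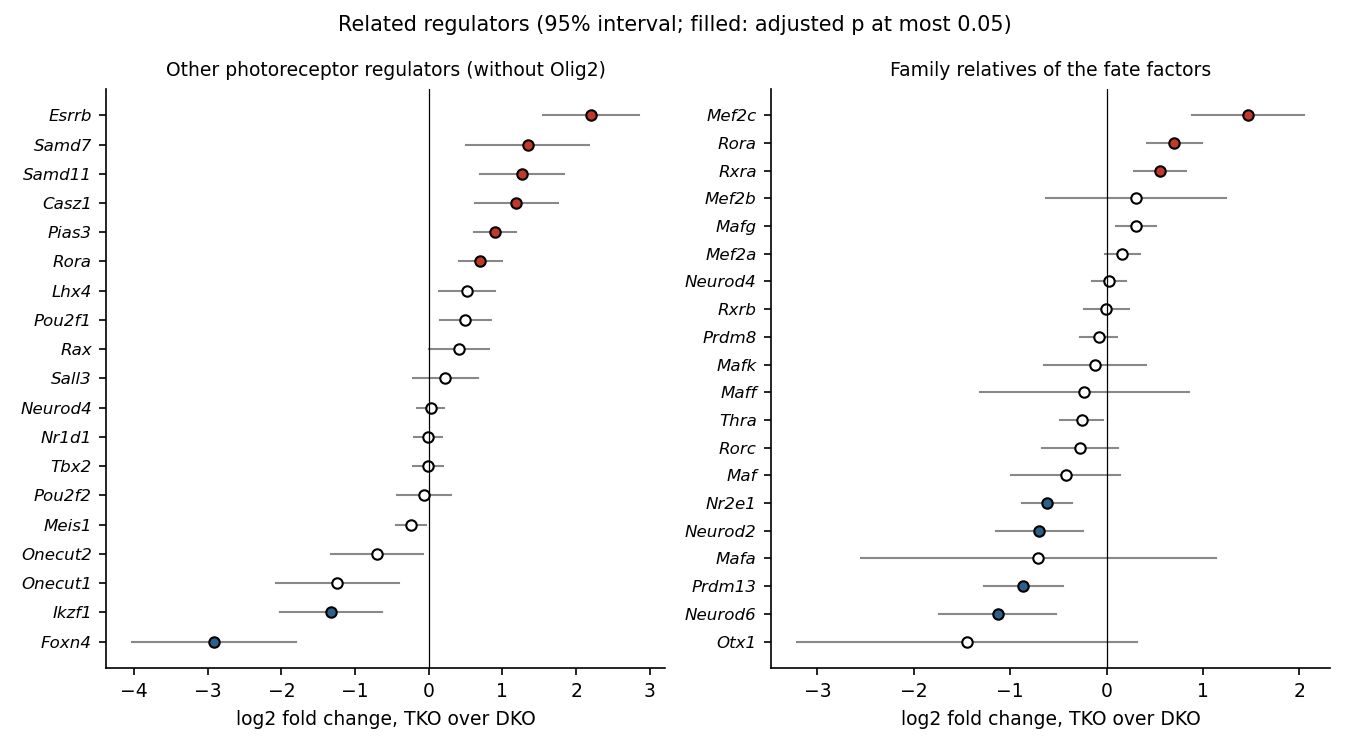
Log2 fold changes (TKO over DKO) of the other photoreceptor regulators, left, and of the reported family relatives of the 10 factors, right, with 95% intervals and filled points where the adjusted p is at most 0.05. Esrrb lies furthest right at 2.21 and Foxn4 furthest left at -2.91. Olig2, at 0 counts in all TKO retinae, is left out.

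Of the 21 family relatives of the 10 factors, 3 rose (Mef2c, Rora and Rxra), 4 fell (Nr2e1, Neurod2, Neurod6 and Prdm13) and 14 did not pass, with a median of -0.12. None of these 7 calls held with every library left out, and with DKO replicate 2 left out none of the 21 passed. Genes of progenitors and Notch signalling, which precede photoreceptor fate, gave 8 that fell and 6 that did not pass among 14, with a median of -0.64. Sox2, a gene of progenitors and Muller glia, had a log2 fold change of -1.15 (edgeR adjusted p = 0.00627), and Hes5, a Notch target, of -2.07 (0.00886). Both passed with any library left out, whereas the list gave 5 when TKO replicate 1 was left out and 3 when TKO replicate 2, DKO replicate 1 or DKO replicate 2 was. Pax6, which marks amacrine cells at P21 as well as progenitors, had -0.25 and did not pass (edgeR adjusted p = 0.196). Bipolar markers, read because OTX2, CRX and NEUROD4 also act in those cells, had summed levels of 19041 to 25114 in TKO and 16755 to 19770 in DKO retinae, and 3 of 11 rose, a count that went to 0 when TKO replicate 1, TKO replicate 2, DKO replicate 1 or DKO replicate 2 was left out. Amacrine markers, where Rorb and Neurod1 are also used, had 18375 to 22029 in TKO and 20145 to 22534 in DKO retinae, and none of the 9 passed. Among 8 markers of Muller glia, where Sox2 and Nr2e1 are also used, 2 rose, 2 fell and 4 did not pass. Both rises held with any library left out, whereas none of the 8 fell when DKO replicate 1 or DKO replicate 2 was.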

How the data were processed

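Poly(A) RNA of 6 P21 mouse retinae (3 Rb1/p107/Hells TKO, 3 Rb1/p107 DKO) was sequenced on a stranded kit. The authors deposited raw read counts per gene symbol, without normalization. The study's methods name STAR and HTSeq on GRCm38, and the submitters' processing notes name TopHat2, featureCounts and DESeq2, so the counting tool is uncertain. Its strand setting is not stated. Library totals ranged from 10343907 to 14203098 counts.

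Groups and replicate numbers came from the labels. Genes with a sum of at least 10 were tested with edgeR 4.0.16 in R 4.3.3 (TMM, quasi-likelihood F test, no covariate, Benjamini-Hochberg adjustment). Standard errors are log2 fold changes over the square root of F, taken without sign. Motifs were searched on both strands of windows from 250 bases before a start. The mean normalised count in the differential expression criteria used DESeq2 1.42.0 size factors. Self-tests ran on simulated counts. Ratios between genes were compared by exact two-sided permutation tests. Exon lengths came from GENCODE M21 on GRCm38 and promoter windows from RefSeq on GRCm38.p6. Floors cover counting error only.

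Alternatives were DESeq2, 3 scalings, 2 filters, robust dispersions, a replicate block, each library left out, a threshold of 0.01 and other denominators. The members and lists were chosen with earlier results of these data known. Genes were named by rule: the 10 members, Hells, Rb1 and Rbl1, regulators and relatives that passed, paralogues discussed, and the 3 most abundant genes of a list. Kcne2, Sox2, Hes5, Pax6 and the overlapping transcripts were added after their values were seen. A few genes under this rule are not reported here.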

Additional observations from a re-analysis of the deposited data

How the results depend on the processing

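Crx, Nrl, Nr2e3, Otx2 and Mef2d kept direction and call under DESeq2, every other scaling, both filters and robust dispersions. Of the 10 factors, 8 passed with DESeq2, 6 with total counts, 5 with robust dispersions and 3 at an adjusted p of at most 0.01, at which 561 genes passed and 421 were differentially expressed. With each library left out in turn, 2 to 8 factors passed and 2 to 6 were differentially expressed, among 647 to 3590 and 471 to 1500 genes. The ratio to rod genes was lower without overlap for 8 factors, for 8 to 9 with a library left out, and for 0 with cone genes as the denominator, added after seeing the data. Of all tested genes, 91.7% were lower without overlap against rod genes and 19.5% against cone genes. The log2 fold change of Rorb was -0.13 with total counts and -0.092 to 0.20 with a library left out. That of Rxrg was -0.021 with upper quartile scaling, -0.15 with total counts and -0.096 to 0.092 with a library left out. Total counts moved the median of all genes to -0.17 and gave 778 genes higher and 2610 lower. The replicate numbers did not pair the samples: deviations of same-numbered retinae correlated at 0.073, -0.040 and -0.16, and 1 of 6 libraries correlated best with its own number. With the number as a replicate block, 0 factors passed or were differentially expressed, among 106 and 90 genes (Nrl had an adjusted p of 0.0599 and Crx of 0.0603 in edgeR), and 5002 genes had an unadjusted p under 0.05. The cause of these shifts was not tested. With 3 libraries a group, exact tests of ratios cannot go below 0.1, and Prdm1 and Rxrg rest on the fewest counts, from 80 to 161 in a library.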
